A study of Homo sapiens with 6 samples.

Results

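Replication-independent histone variants are the histones that a cell can make outside S phase, from genes that lie apart from the histone clusters. This account covers 9 such genes under their older symbols: H2AFX (H2A.X), H2AFZ and H2AFV (H2A.Z), H2AFY and H2AFY2 (macroH2A), H2AFJ (H2A.J), H3F3A and H3F3B (H3.3) and H1FX (H1.10). They were chosen by gene name with earlier results of the authors' comparison of the groups known, and those results are not used here. Of the 9 genes, 8 are among the 31999 genes of the deposited table, and H2AFY2 was not analysed for its level. The RNA came from HEL cells, a human erythroleukemia cell line, transduced with a lentiviral small hairpin RNA, either a non-targeting control (shCtrl, 3 libraries) or one against TMIGD2 (shTMIGD2, 3 libraries). Both groups thus carry a hairpin vector, were grown in the same medium and were sequenced after poly(A) selection, and the hairpin used among those in the methods is not given in the labels. The value used is the authors' mean log2 CPM (log2 of the counts assigned to a gene, scaled to the size of the library), 1 value per gene over all 6 libraries. The table's other values for each gene are the authors' own comparison of the groups, so shTMIGD2 against shCtrl was not analysed here. The depth of the libraries is unknown from this column, and with 1 mean per gene no value below has a measured spread between libraries. Orders and ratios are therefore descriptions, and none of them was tested.

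All 8 genes taken as markers of HEL, the labelled cell line, were at a mean log2 CPM of 5.52 or more. They ranged from EPOR, the erythropoietin receptor, to ITGA2B, the platelet integrin alpha IIb subunit, at 10.54. The fetal globin genes HBG1 and HBG2 were at 9.72 and 7.25. Of 5 markers of other cells, 3 had a value, and the highest was CD79A, a B cell receptor component, at 2.32. NCAM1 was at 2.26 and the collagen gene COL1A1 at -0.80. TMIGD2, the targeted gene, had a mean log2 CPM of 4.08 over both groups, which cannot check the knockdown.

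A nucleosome wraps DNA around an octamer of H2A, H2B, H3 and H4, and H1 binds the linker DNA. Canonical histones are made in S phase from clustered genes whose mRNAs end in a stem-loop. The variant genes give mostly polyadenylated mRNAs and can be transcribed throughout the cell cycle. H3.3 replaces H3 in active genes and at telomeres, H2A.Z sits beside transcription start sites, and H2A.X is phosphorylated around DNA double-strand breaks. MacroH2A carries a large domain, which in some forms binds metabolites of NAD, and is found in repressed chromatin. H2A.J has been linked to senescence, and H1.10 is a linker histone distant in sequence from the clustered ones.

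Sequences before the transcription start are shown first, because the variant genes have promoters of different kinds. For H2AFX, H2AFZ, H3F3B, H1FX and H2AFJ, the 120 bases before the start in RefSeq (GRCh38.p14) are printed 5′ to 3′ on the gene's strand. Capitals mark matches on either strand to any of 5 motifs. CCAAT is the box that the factor NF-Y binds in many histone and cell cycle genes. The letters TATAAA stand for the TATA box, which sets the start of transcription in some genes. The letters GGGCGG stand for the GC box, to which factors of the SP family bind. The letters TGACGTCA are the full cAMP response element, and the octamer, bound by OCT factors in clustered H2B genes, was searched as ATGCAAAT. No motif here contains another.
H2AFX, chr11:119095466-119095585, minus strand: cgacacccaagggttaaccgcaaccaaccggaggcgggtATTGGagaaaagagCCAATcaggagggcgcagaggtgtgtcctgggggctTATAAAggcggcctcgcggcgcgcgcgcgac
H2AFZ, chr4:99950276-99950395, minus strand: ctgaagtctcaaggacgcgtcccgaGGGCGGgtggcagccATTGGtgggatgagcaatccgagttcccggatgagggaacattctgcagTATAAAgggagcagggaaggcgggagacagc
H3F3B, chr17:75779780-75779899, minus strand: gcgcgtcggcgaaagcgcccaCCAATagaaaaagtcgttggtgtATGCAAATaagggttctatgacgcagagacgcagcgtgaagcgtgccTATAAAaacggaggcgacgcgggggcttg
H1FX, chr3:129316287-129316406, minus strand: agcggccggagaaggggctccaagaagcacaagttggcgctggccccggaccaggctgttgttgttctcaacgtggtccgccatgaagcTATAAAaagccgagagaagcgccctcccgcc
H2AFJ, chr12:14774285-14774404, plus strand: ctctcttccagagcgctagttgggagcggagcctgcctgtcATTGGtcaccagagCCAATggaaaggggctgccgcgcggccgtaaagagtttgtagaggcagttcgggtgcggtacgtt

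RefSeq promoters of 300 bases (250 before the start and 50 from it) were given for all 9 genes, 13 promoters in all, since H3F3A has 4 starts and H2AFY has 2. TATAAA on the gene's strand, 15 to 50 bases before the start, was found in H2AFX, H2AFZ, H3F3B and H1FX, 4 of the 13 promoters, against 2.55% of all 35116 promoters. Its first base lay at -31 in H2AFX, H2AFZ and H1FX and at -29 in H3F3B. The GENCODE gene of H3F3B reaches further upstream than this RefSeq start, so other starts of it were not searched. CCAAT on either strand was found in 9 of the 13 promoters, against 34.6% of all promoters, and H2AFX, H2AFV and H3F3B each held 4 matches. The 9 promoters belong to 7 genes, all but H2AFY2 and H1FX. GGGCGG was found in 8 of the 13, against 45.0% of all promoters, and H3F3A start 4 held the most, 6 matches. The octamer was found only in H3F3B, at -76, against 1.77% of all promoters. No member promoter held the full TGACGTCA, which 1.85% of all promoters do. Some H3F3A windows overlap their neighbours in part, so the 13 promoters do not stand for 13 separate sequences. A match is a description of the letters and not a binding site.

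**Figure D1:**
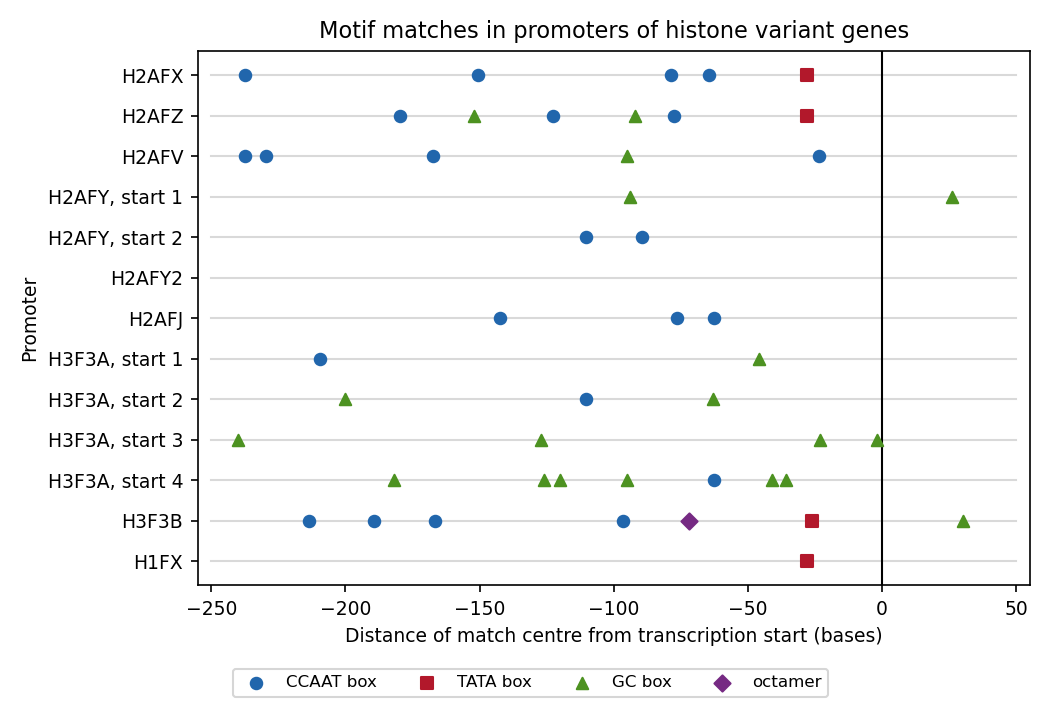
Motif matches in the 13 RefSeq promoters of 9 histone variant genes, with the distance of the match centre from the transcription start in bases on the x axis and 1 row per promoter. Squares (TATAAA) stand just before the start in H2AFX, H2AFZ, H3F3B and H1FX, circles mark CCAAT, triangles GGGCGG and the diamond the octamer of H3F3B.

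Of the 8 genes with a level, 7 were abundant and H2AFJ was close to the lowest value in the table. The 7 genes had a mean log2 CPM between 6.91 and 9.57, and each was above 94.2% of all genes listed, or more. At a mean log2 CPM of 0 or more, which 43.8% of all genes reached, stood 7 of the 8 members. The median over the 8 members was 8.04, against -0.97 over all genes and 3.62 over the 16668 protein-coding genes listed. Of those protein-coding genes, 69.0% reached 0, and H1FX was above 89.1% of them. All 7 abundant genes were among the top 10% of genes listed, and 6 of them among the top 10% of protein-coding genes. Together the 8 genes held a mean of 2324 CPM.

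**Figure D2:**
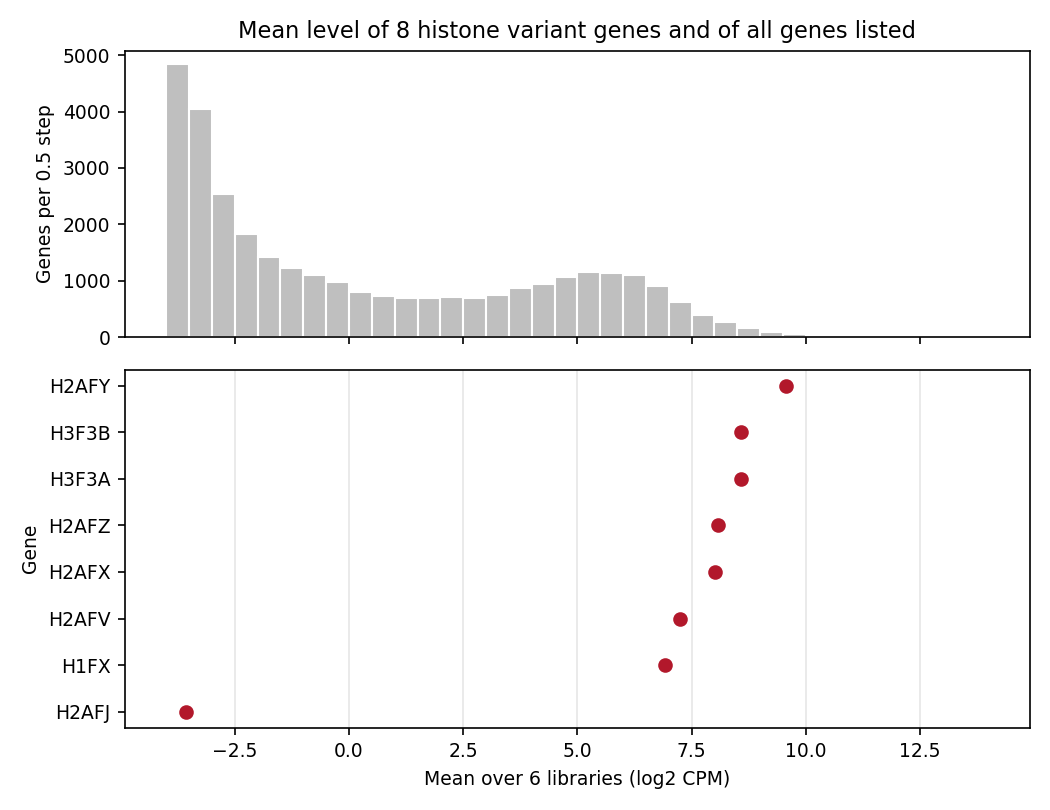
Upper panel, the number of genes listed per step of 0.5 in mean log2 CPM, over 31999 genes. Lower panel, the authors' mean log2 CPM over 6 libraries of each of 8 histone variant genes (x axis, same scale), of which 7 lie between 6.91 and 9.57 and H2AFJ lies at -3.57.

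Among the H2A variants, H2AFY had the highest CPM per gene. H2AFY, which encodes macroH2A1 (chromosome 5, 135334381 to 135399914, minus strand, GRCh38, GENCODE 44), had a mean of 761 CPM (9.57 on the log2 scale), place 142 of the 31999 genes. The gene has splice forms of macroH2A1 that differ in the domain that binds ADP-ribose, and a value per gene does not separate them. H2AFZ (chromosome 4, 99948086 to 99950355, minus strand), the main H2A.Z gene, had a mean of 269 CPM (8.07), and H2AFX (chromosome 11, 119093874 to 119095465, minus strand) 258 CPM (8.01). H2AFV (chromosome 7, 44826791 to 44848087, minus strand), the other gene for H2A.Z, had 152 CPM (7.25). These levels are per gene and not per length, so they rank reads and not molecules.

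H2AFJ (chromosome 12, 14774405 to 14778002, plus strand) had a mean log2 CPM of -3.57, or 0.0842 CPM. The lowest value listed, -3.76, was shared by 154 genes, and H2AFJ stood 0.19 above it on the log2 scale. Including H2AFJ, 4819 genes were at this value or lower. Whether any H2AFJ read was counted in a given library cannot be read from this mean. No window of 50 bases in its 620-base transcript was found in another gene, and no annotated gene overlaps it. Its full promoter window, which reaches beyond the stretch printed above, held CCAAT 3 times, as did that of H2AFZ. The match at -145 in H2AFJ and those at -182 and -125 in H2AFZ lie outside the printed stretches. In bulk RNA, fewer cells with a transcript and less of it per cell cannot be told apart, so a low mean does not say how many cells made H2AFJ mRNA.

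H3.3 is made from a pair of genes, and both were among the most abundant genes. H3F3B (chromosome 17, 75776434 to 75785893, minus strand) had a mean of 384 CPM (8.58 on the log2 scale) and H3F3A (chromosome 1, 226061851 to 226072019, plus strand) 380.4 CPM (8.57), so H3F3B gave 50.2% of the CPM of the pair. Their proteins of 136 residues do not differ at any position, while 88 of the 408 coding bases do. Of these 88 bases, 77 are at the third codon position. The first 60 coding bases of both genes (GENCODE 44 transcripts) are shown because they tell which reads can be assigned, with the 13 bases that differ in capitals.
H3F3A: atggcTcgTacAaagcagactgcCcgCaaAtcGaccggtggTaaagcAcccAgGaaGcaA
H3F3B: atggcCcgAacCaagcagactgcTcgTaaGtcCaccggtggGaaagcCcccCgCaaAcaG
The longest stretch of coding sequence without a difference between the pair was 14 bases, so a read longer than that from the coding region of either gene holds at least 1 base that separates them.

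The H3.3 genes share sequence with retrocopies instead. A retrocopy is an mRNA copied back into the genome, and H3F3A has several. Of the 50-base windows in the representative H3F3A transcript, 72.7% were also found in the transcript of another gene, on either strand, against 8.28% for H3F3B, whose only partner was H3F3C, the gene for H3.5. H3F3AP4 (chromosome 2, 174719908 to 174720318, plus strand) was listed at 70.2 CPM, a mean log2 CPM of 6.13 and 18.5% of the level of H3F3A. All 362 of its 50-base windows occur in H3F3A, so reads that lie wholly within it cannot be told apart from reads of H3F3A. H3F3AP6 (chromosome 4, 139698144 to 139698554, minus strand, within the MGST2 gene) was listed at 17.4 CPM and shares 286 of 362 windows with H3F3A. The 5 H3F3A pseudogenes listed summed to 88.8 CPM, or 23.3% of the level of H3F3A. That sum is no bound on reads misplaced, since other genes also share windows with H3F3A, the largest partner with 380 of its 1021 windows, and since H3F3AP2 and H3F3AP5 in the sum share 0 and 14. How the authors handled reads that fit several places is not given in the sources used here, so the level of H3F3A is uncertain by an unknown amount.

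For the other members, shared sequence was a small part. H2AFZ shared 8.94% of its windows, 7.34% with H2AFZP3, a pseudogene within UBAC2 listed at 3.21 CPM, or 1.19% of the level of H2AFZ, and 1.59% with the antisense gene H2AZ1-DT that overlaps it. H2AFV shared 7.32% with 46 genes, of which the largest share, 5.51%, was with its pseudogene H2AFVP1, listed at 1.76 CPM. H2AFX shared 0.324%, and H2AFJ and H2AFY2 shared none. H1FX and H2AFY shared windows only with antisense genes that overlap them, 17.1% and 6.91% of their windows. The libraries came from a kit that keeps the strand, but the strand setting of the count was not given in the sources used here, so sense and antisense reads of H1FX, H2AFY and H2AFZ may not have been separated.

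**Figure D3:**
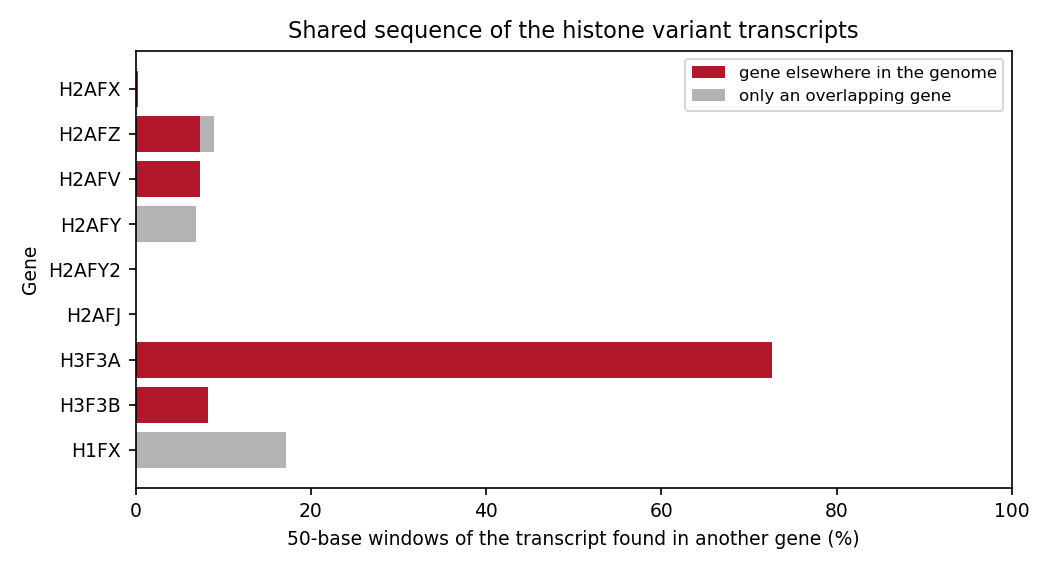
Share of 50-base windows of each representative transcript (x axis, percent) that also occur in a transcript of another gene, for 9 histone variant genes, with grey for windows found only in a gene that overlaps on the genome. H3F3A stands apart at 72.7%, and the other 8 genes are at 17.1% or less.

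H1FX (chromosome 3, 129314771 to 129316286, minus strand), the gene for the linker histone H1.10, had a mean of 120.1 CPM (6.91 on the log2 scale), place 1855 of all genes and the lowest of the 7 abundant members. Its protein has 213 residues.

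The H2A variants differ in sequence by unlike amounts, and the proteins of H2AFX and H2AFZ are identical in 54.1% of columns. The proteins of H2AFZ and H2AFV, both of 128 residues, differ at 3 positions, and those of H2AFX and H2AFJ are identical in 82.5% of columns. H2AFY and H2AFY2, both of 372 residues, are identical in 68.4% of columns.

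The representative transcripts of H2AFX, H2AFJ and H1FX each have 1 exon, like the clustered histone genes. Those of H3F3A and H3F3B have 4 exons, those of H2AFZ and H2AFV have 5, and that of H2AFY has 9. Longer mRNAs give more fragments per molecule, so levels of different genes were compared per kb of the representative (MANE Select) transcript. On that scale H2AFY was the highest, at 397 CPM per kb, followed by H3F3A at 356, H2AFZ at 311 and H2AFX at 162. H3F3B was at 142, H1FX at 79.2, H2AFV at 50.2 and H2AFJ at 0.136 CPM per kb. The place of H2AFY depended on the length used. Its longest transcript has 10982 bases, against 1917 for the representative one. Per kb of the longest transcript of each gene, H2AFY was at 69.3 CPM per kb. That was below H3F3A at 204, H2AFX at 162, H2AFZ at 143, H3F3B at 138 and H1FX at 79.2. Per kb of coding length H2AFY was at 682, below H3F3B, H3F3A and H2AFZ. The 7 abundant genes spanned 7.91-fold per kb. Among 16493 protein-coding genes with such a length, the 7 were each above 91.1% of genes or more.

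The ratio within the pairs depended on the length used. H3F3A and H3F3B had nearly the same CPM, but the transcript of H3F3B has 2705 bases and that of H3F3A 1070, so per kb H3F3B was at 0.399 times the level of H3F3A. Per kb of coding sequence, which has the same length in both, H3F3B was at 1.01 times H3F3A, a near equality with no spread to set it against and with the level of H3F3A uncertain. The pair as a whole was at 497 CPM per kb. For H2A.Z the order was the same on each scale of length tried: per kb of transcript, H2AFZ was at 6.19 times H2AFV and gave 86.1% of the pair's 361 CPM per kb. Per kb of coding sequence, which again has the same length in both, that ratio was 1.77, the same as for CPM.

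Per kb, H2AFY gave 43.1% of the summed level of the 5 H2A variant genes with a value, H2AFZ 33.8%, H2AFX 17.6%, H2AFV 5.45% and H2AFJ 0.0148%. H2AFJ stood close to the lowest value listed, so its share and its level per kb say little about its reads. Per kb of coding length the 3 largest shares lay close together, 29.4% for H2AFZ, 28.6% for H2AFY and 25.3% for H2AFX, and that of H2AFV was 16.6%. CPM also counts reads outside the coding part, so dividing by coding length raises the share of genes whose coding part is small. That of H2AFV is 384 of 3026 bases. All these shares are of summed levels per length, from RNA selected for poly(A) tails, and protein was not measured.

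**Figure D4:**
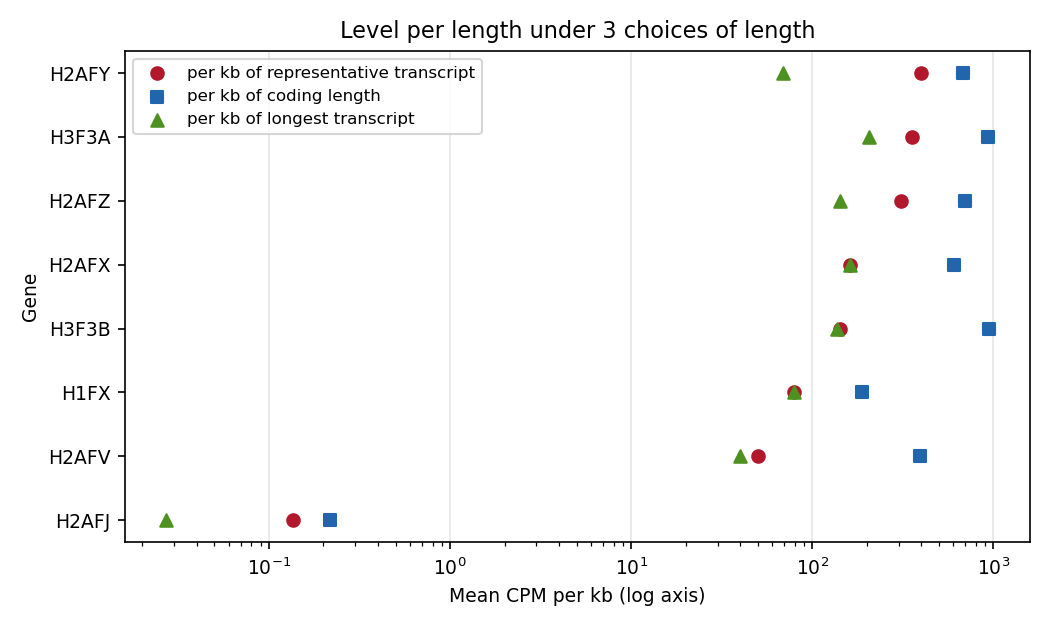
Mean CPM per kb (x axis, log scale) of 8 histone variant genes, divided by the length of the representative transcript (circles), of its coding part (squares) or of the longest annotated transcript (triangles). H2AFJ lies more than 100-fold below the other 7 genes on each scale, and the order of those 7 changes with the length used.

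The replication-dependent histone genes, taken as the 68 gene names that start with HIST and a digit, were far lower. Of these 68, at least 6 are pseudogenes (PS in the name), and without them the median of the other 62 was -1.41 on the log2 scale. For all 68 the median mean log2 CPM was -1.45, and 16 of the 68 reached 0. The highest were HIST1H1C, a linker histone gene, at 4.52 and HIST1H2BK, an H2B gene, at 4.42. The lowest were HIST2H2BA and HIST1H1PS1, both at -3.76, and pseudogenes without PS in the name were not set apart. On this scale 7 of 8 variant genes were above every gene of this group, by at least 2.39 on the log2 scale. The summed CPM of the 8 variant genes was 22.2 times that of the 68 genes, which was 104 CPM. Per kb of representative transcript, which 54 of the 68 genes have, the highest was HIST1H2BK, at 43.2 CPM per kb. Again 7 of 8 variant genes lay above it, the nearest being H2AFV at 50.2 CPM per kb, and the sum of the 8 was 8.14 times that of the 54. The libraries were selected for poly(A) tails, which mRNAs of the clustered genes mostly lack. The part of this selection in the difference was not tested. Any mRNA forms of the variant genes without such a tail would be missed as well. Windows shared among the 68 genes were not searched, so reads that fit several of them may affect their levels. Of 10 further replication-independent variant genes, most of them known from testis, 4 had a value. CENPA, the H3 variant of centromeres, was at 5.32 on the log2 scale, and the testis linker histones H1FNT and HILS1 were at -3.05 and -3.76. H3F3C was at 2.95, but 220 of its 1065 windows occur in H3F3B, so its level may include reads of H3F3B.

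Most of the factors that place, remove or modify these variants were above a mean log2 CPM of 0. All 9 genes of H3.3 deposition had a mean log2 CPM above 0, with a median of 6.32. DEK, a chromatin protein that binds H3.3, was the highest at 8.12, followed by CABIN1 of the HIRA complex at 7.02, and the lowest were UBN2 at 4.49 and HIRA itself at 3.60. All 11 genes of H2A.Z exchange were above 0 as well, with a median of 6.35. ANP32E, the chaperone that removes H2A.Z, was the highest at 8.74, and RUVBL2, an ATPase of the exchange complexes, was at 7.88. SRCAP, the motor of an H2A.Z-loading complex, was the lowest at 2.85, and ZNHIT1, a subunit of that complex, was at 5.13.

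Of the 13 genes that act on or around H2A.X, 12 had a value and 11 were above 0, with a median of 6.05. PRKDC, the catalytic subunit of the DNA-dependent protein kinase that phosphorylates H2A.X, was at 10.58, and BAZ1B, a kinase for its terminal tyrosine, at 7.54. Of the EYA phosphatases that reverse the tyrosine mark, EYA3 was at 6.50, EYA4 at 3.58 and EYA1 at -3.48, the lowest of the list. All 5 genes linked to macroH2A and ADP-ribose were above 0, from PARP1, which makes poly(ADP-ribose), at 9.49 and MBNL1, a splicing factor, at 8.53 to PARG, which degrades the polymer, at 4.65 and PARP2 at 4.63. Shares above 0 in these lists, 100% in 3 of the 4 and 91.7% for H2A.X, stand beside 69.0% of the 16668 protein-coding genes listed.

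**Figure D5:**
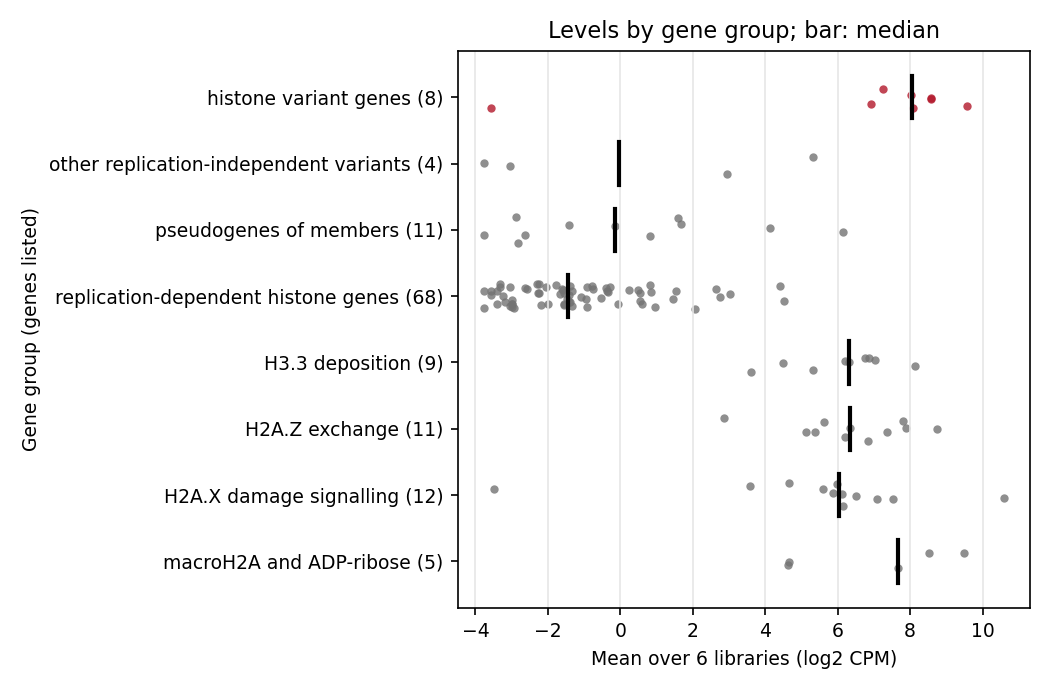
Mean log2 CPM over 6 libraries (x axis) of single genes (points, spread vertically only to separate them) in 8 groups, with the number of genes listed in parentheses and the group median as a bar. The histone variant genes have a median of 8.04, the replication-dependent histone genes one of -1.45.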

How the data were processed

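RNA of 3 shCtrl and 3 shTMIGD2 HEL libraries (poly(A) selection, directional kit) was sequenced, and groups follow the labels. The authors aligned reads to hg38 with STAR 2.6.1b and counted fragments per gene with HTSeq 0.6.1 on a refSeq annotation. The authors deposited 1 table of 31999 genes with a mean log2 CPM over the libraries. Its 4 other columns hold the authors' own comparison of the groups (log2 fold change, F, p-value and adjusted p) and were not used, so the test planned on counts per library was not run. The authors' methods give a filter on the average read count for their DESeq2 analysis. Whether this table had that filter, and its scaling and prior count, are not given in the sources used here, and depth is unknown.

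The members and gene lists were chosen with earlier results of these data known. CPM is 2 to the power of the mean log2 CPM, and these values sum to 1002510 over all genes. Of the 31999 names, 22740 matched a RefSeq symbol and 750 an older one. Positions, exons and lengths come from GENCODE 44 (GRCh38), promoters from RefSeq (GRCh38.p14). The representative transcript is MANE Select, and coding length leaves out the stop codon. Windows of 50 bases were searched in all GENCODE 44 transcripts, and identity is the share of identical columns in a global alignment of translated coding sequences. Motifs, windows and pseudogenes were chosen after the levels were seen. A further gene of the group and 2 marker genes are not reported here. Named genes are all members above, TMIGD2 and, of each list, the 2 highest and the 2 lowest listed. EYA3, H2AZ1-DT and the pseudogenes of members are outside this rule and were chosen after their values were seen. Functions were tested on made-up sequences and values first, and 5 of 5 checks were recovered. Python 3.11.15, pandas 2.3.3 and Biopython 1.88 were used.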

Additional observations from a re-analysis of the deposited data

How the results depend on the processing

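All 7 abundant members stayed above a mean log2 CPM of 1 and of 5. Of these 7, 6 were in the top 10% when only genes at 0 or more, or only protein-coding genes, were ranked, and 7 when protein-coding genes were ranked per kb of transcript. The ratio of H3F3B to H3F3A per length, 0.399 with the representative transcript, was 0.674 with the longest transcript, 1.01 with coding length and 1.01 with no division by length. The last values are near equality and have no spread, so they show no order of the pair. The ratio of H2AFZ to H2AFV, 6.19, was 1.77 with coding length, 3.58 with the longest transcript and 1.77 with no length. Within each pair the coding lengths are equal, so coding length and no length must give the same ratio and are not separate checks. Of the 8 members with a level, 7 were above every replication-dependent histone gene in CPM. Per kb, 7 were above each of the 54 of the 68 such genes that have a length. Per-kb ranks, this comparison per kb and the ratios with no length were chosen after seeing the data.

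No paired analysis was possible because the column used holds 1 mean per gene over all libraries. For the same reason the alternatives DESeq2, no filter, the replicate block and leaving out each replicate were not run. Depth and spread are unknown, which limits the reading of H2AFJ, whose mean lies 0.19 above the lowest value on the log2 scale.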
